A study of Rattus norvegicus with 12 samples.

Results

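The transcripts described here were lower in rat aortic smooth muscle cells given a virus that overexpresses Cklf1 and higher in the same kind of cell given a hairpin against Cklf1. They were selected on the measured values of both comparisons, by 5 conditions. The mean over the 12 libraries had to be at least 2 and under 400 FPKM (a fragment count divided by transcript length and library total). On the log2(FPKM + 1) scale, the Ad-Cklf1 group mean had to lie at least 0.4 below that of Ad-GFP, and the shRNA_CKLF1 group mean at least 0.4 above that of shRNA_scramble. The 3 libraries of one group could not overlap the 3 of the other in either comparison, and the mean of the 6 hairpin libraries had to lie within 1.5 of the mean of the other 6. Of the 29330 transcripts in the files, 230 met all of these conditions. All 230 were also among the 13698 that averaged 1 FPKM or more and were tested together. Since the rule asks for a fall and a rise, the fall with overexpression and the rise with knockdown are given below as descriptions. A fit over all tested transcripts supplied their standard errors, each of which pools the spread within all 4 groups. A wide spread in the knockdown libraries therefore also widens the standard error of the fall.

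Total RNA came from primary vascular smooth muscle cells, explanted from the media of the thoracic aorta and used at passage 4. The rats were male, of the strain that the labels write as Sprague-Dailey. All 4 groups received adenovirus overnight, were grown to 75% confluence and then held in medium with 0.2% serum for 24 to 32 h, per the labels' protocols. The viruses carried green fluorescent protein (Ad-GFP), Cklf1 (Ad-Cklf1), a scrambled short hairpin RNA (shRNA_scramble) or a hairpin against Cklf1 (shRNA_CKLF1), with 3 libraries for each. Both hairpin groups, and neither of the other 2, received tumour necrosis factor alpha (TNF) for 24 h, at 25 µg/L. The series' design text gives the control of the overexpression virus as none, whereas the growth protocol and the sample titles give the GFP virus. The labels call the samples triplicates and name no separate animals or cultures for them. A p-value here sets a difference between groups against the spread among these samples only, and that spread may be technical.

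CKLF1 is a small secreted protein with chemokine-like activity, which attracts leukocytes and has been studied in the injured arterial wall. Vascular smooth muscle cells of the media carry contractile proteins when quiescent, and in culture or after injury they can lose part of that program, divide and migrate. TNF is a cytokine that activates inflammatory gene expression in these cells through its receptors and NF-kB. The files name transcripts by Ensembl identifier only, and 0 of the identifiers matched the gene table used here. The genes of the 230 transcripts, their roles, positions and sequences, and how many genes they stand for, are therefore not reported. For the same reason neither the level of Cklf1 nor the markers of smooth muscle, endothelial, macrophage or fibroblast identity were checked. Transcripts of 1 gene share reads, and an FPKM value per transcript depends on how reads were divided among isoforms, so the 230 are not independent of each other. In such bulk samples fewer cells of a type and less RNA per cell cannot be told apart.

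The FPKM values of a library summed to between 492242 and 627410, and between 8164 and 9735 transcripts were listed at 0. The files give no read counts. A rough relative depth, read from steps among low values, was 0.973 to 1.28 in Ad-GFP and 0.717 to 0.835 in Ad-Cklf1. It was 0.616 to 0.660 in shRNA_scramble and 0.616 to 0.758 in shRNA_CKLF1. The lowest values came from the hairpin groups, though the ranges of shRNA_CKLF1 and Ad-Cklf1 overlapped. Every Ad-GFP library lay above every Ad-Cklf1 library, the same direction as the selected fall. The part of depth in the results was not tested. The upper quartile of FPKM over all transcripts was 8.86 to 8.99 in Ad-GFP and 8.88 to 8.94 in shRNA_CKLF1, against 8.68 to 8.71 in Ad-Cklf1 and 8.73 to 8.75 in shRNA_scramble. It was thus higher in the groups where the 230 transcripts were chosen to be higher. When each library was divided by this quartile, 199 of the 230 still met the rule and no other transcript did. Replicate 3 of shRNA_CKLF1 stood apart from replicates 1 and 2. Without it 198 transcripts met the rule, 178 of them among the 230.

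The transcripts were of ordinary abundance. Their mean over the 12 libraries was 2.10 to 208.9 FPKM with a median of 9.79. The median over all tested transcripts, which entered at 1 FPKM with no upper limit, was 10.0. A mean of at least 10 FPKM was found for 112 of them, a mean under 5 for 63, and a mean of at least 100 for 7. None was listed at 0 in any library, and 29 had at least 1 library under 1 FPKM. A single transcript, ENSRNOT00000075167, singled out after its values were seen, had a library under 0.1 FPKM. It stood at 16.1, 15.9 and 0.0134 FPKM in replicates 1 to 3 of shRNA_scramble, while its other 9 libraries lay between 6.18 and 40.3 FPKM.

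In the group medians the transcripts stepped down from Ad-GFP to shRNA_CKLF1, Ad-Cklf1 and shRNA_scramble. The median of the 230 group means was 12.8 FPKM in Ad-GFP, 10.0 in shRNA_CKLF1, 7.86 in Ad-Cklf1 and 5.56 in shRNA_scramble. Together they made up 1.19% to 1.26% of the summed FPKM of an Ad-GFP library and 0.682% to 0.705% of an Ad-Cklf1 library. The share was 0.423% to 0.473% in shRNA_scramble and 0.693% to 0.937% in shRNA_CKLF1, where the highest value was that of replicate 3. The share of the lowest shRNA_CKLF1 library, replicate 2, thus lay within the range of the Ad-Cklf1 libraries. That library had the largest summed FPKM of all, 627410. Its 230 transcripts themselves summed to 4348 FPKM, above the 3443 to 3638 FPKM of the Ad-Cklf1 libraries. Relative to the mean of Ad-GFP, the median transcript lay at -0.60, -0.64 and -0.57 log2 units in the Ad-Cklf1 libraries and at -1.23, -1.25 and -1.19 in the shRNA_scramble libraries. It lay at -0.62, -0.59 and -0.45 in shRNA_CKLF1. The median over all tested transcripts stayed within -0.0098 and 0.0041 in every library.

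**Figure D1:**
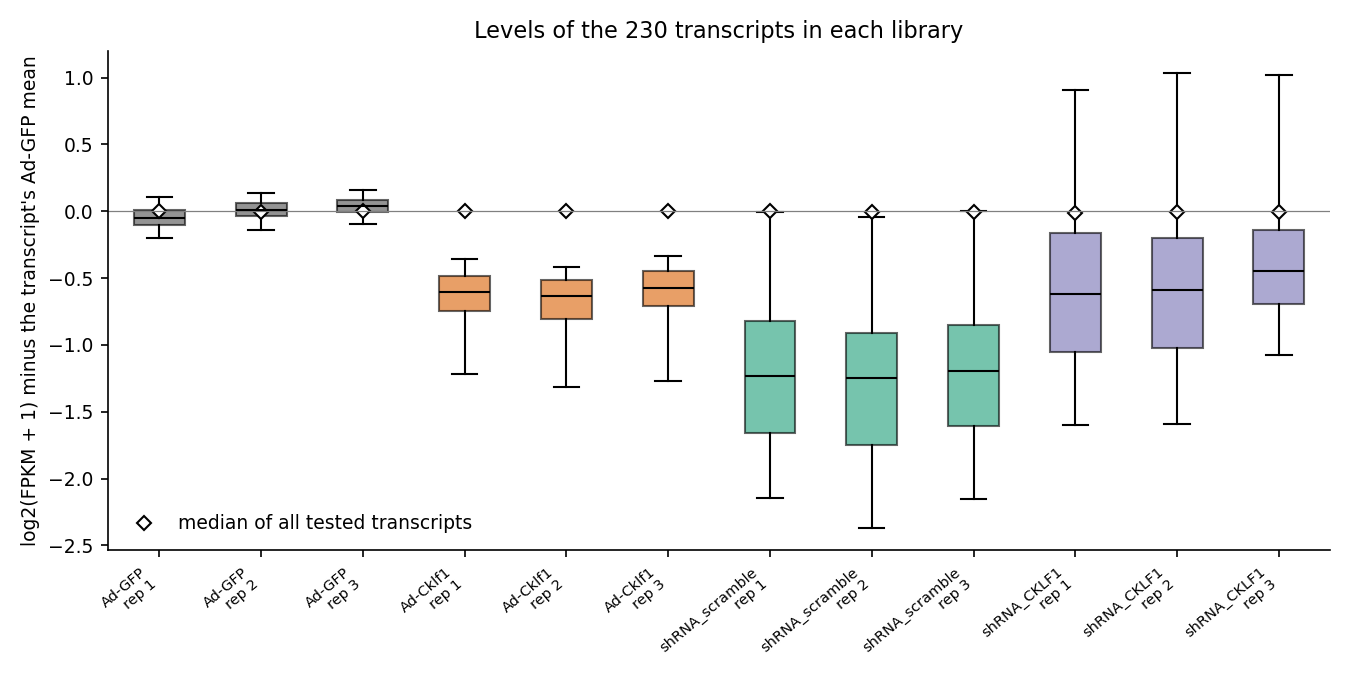
Level of the 230 transcripts in each of the 12 libraries, as log2(FPKM + 1) minus the mean of that transcript over the 3 Ad-GFP libraries. Boxes span the quartiles with the median as a line, whiskers run from the 5th to the 95th percentile of transcripts, and diamonds mark the median of all 13698 tested transcripts, which stays at 0 while the median of the 230 lies at -0.45 to -1.25 outside Ad-GFP.

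The fall with overexpression was moderate for most of the transcripts. The Ad-Cklf1 mean was between 12.5% and 75.5% of the Ad-GFP mean, with a median of 63.1%. On the log2 scale the difference ran from -2.94 to -0.40 with a median of -0.59, beside a median of 0.00 over all tested transcripts. A fall of at least 1 log2 unit was seen in 25 of the 230, and 65 fell by less than 0.5. In the limma fit over all 13698 transcripts, 195 of the 230 had an adjusted p below 0.05 (84.8%), against a background of 11.1% of all tested transcripts lower in Ad-Cklf1. The rule had already selected on this contrast, so nothing is read from that share. The other 35 had limma adjusted p values of 0.0506 to 0.309. Over all called transcripts of the overexpression comparison, 41.4% were higher in Ad-Cklf1. That split moved to 29.7% with scaling to the upper quartile of transcripts above 0 and to 56.4% with the quartile over all transcripts. All called transcripts among the 230 were lower under both, which follows from the selection.

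The largest fall was that of ENSRNOT00000047634, at 163.6, 176.2 and 187.5 FPKM in Ad-GFP and 22.3, 20.6 and 23.3 FPKM in Ad-Cklf1. The groups were far apart, and the difference was -2.94 log2 units (SE 0.07). It stood at 25.5, 22.8 and 24.1 FPKM in shRNA_scramble and 31.1, 31.5 and 34.1 FPKM in shRNA_CKLF1. This rise, 0.40 log2 units (SE 0.07), was the smallest of all 230, and the knockdown libraries came nowhere near those of Ad-GFP.

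ENSRNOT00000013073 had the next largest fall, from 51.8, 58.4 and 54.8 FPKM in Ad-GFP to 11.6, 11.0 and 14.4 FPKM in Ad-Cklf1, a difference of -2.08 log2 units (SE 0.35). It stood at 8.40, 4.42 and 8.02 FPKM in shRNA_scramble and 13.0, 11.1 and 33.5 FPKM in shRNA_CKLF1. Replicate 3 of the knockdown was 2.78 times the mean of replicates 1 and 2. The rise was 1.22 log2 units (SE 0.35) with all 3 knockdown libraries, 0.75 from replicates 1 and 2 alone and 2.16 from replicate 3 alone. The SE of the fall pools this spread, and was 0.106 in a fit of the 6 Ad-GFP and Ad-Cklf1 libraries only.

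The rise with knockdown was slightly larger in its median. The shRNA_CKLF1 mean was 1.33 to 9.04 times that of shRNA_scramble, with a median of 1.72. On the log2 scale the difference was 0.40 to 2.37 with a median of 0.65, beside a median of 0.01 over all tested transcripts. A rise of at least 1 log2 unit was seen in 47 transcripts, and 51 rose by less than 0.5. The limma fit gave an adjusted p below 0.05 for 213 of the 230 (92.6%), against a background of 16.0% of all tested transcripts higher in shRNA_CKLF1, and this too follows from the selection. The remaining 17 had limma adjusted p values of 0.0538 to 0.169.

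The largest rise was that of ENSRNOT00000010092, from 4.81, 5.15 and 4.59 FPKM in shRNA_scramble to 39.5, 41.5 and 15.2 FPKM in shRNA_CKLF1, or 2.37 log2 units (SE 0.29). Replicate 3 was the lowest knockdown library here, and still lay above every library of the other groups. The transcript stood at 8.86, 8.37 and 8.99 FPKM in Ad-GFP and 4.22, 4.13 and 3.99 FPKM in Ad-Cklf1, a difference of -0.93 (SE 0.29, limma adjusted p = 0.0513). The knockdown libraries thus exceeded those of Ad-GFP as well as their own control. The SE of the fall includes the wide spread of the knockdown libraries.

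ENSRNOT00000001570 came next by size of the rise, from 0.918, 1.37 and 0.635 FPKM in shRNA_scramble to 9.88, 11.2 and 5.31 FPKM in shRNA_CKLF1. The difference was 2.27 log2 units (SE 0.23), and the knockdown mean was 9.04 times that of shRNA_scramble, the highest ratio among the 230. It stood at 12.8, 12.5 and 15.6 FPKM in Ad-GFP and 7.12, 5.96 and 6.35 FPKM in Ad-Cklf1, a difference of -0.97 (SE 0.23). The shRNA_CKLF1 libraries lay below all 3 of Ad-GFP, and replicate 3 also lay below the Ad-Cklf1 libraries.

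**Figure D2:**
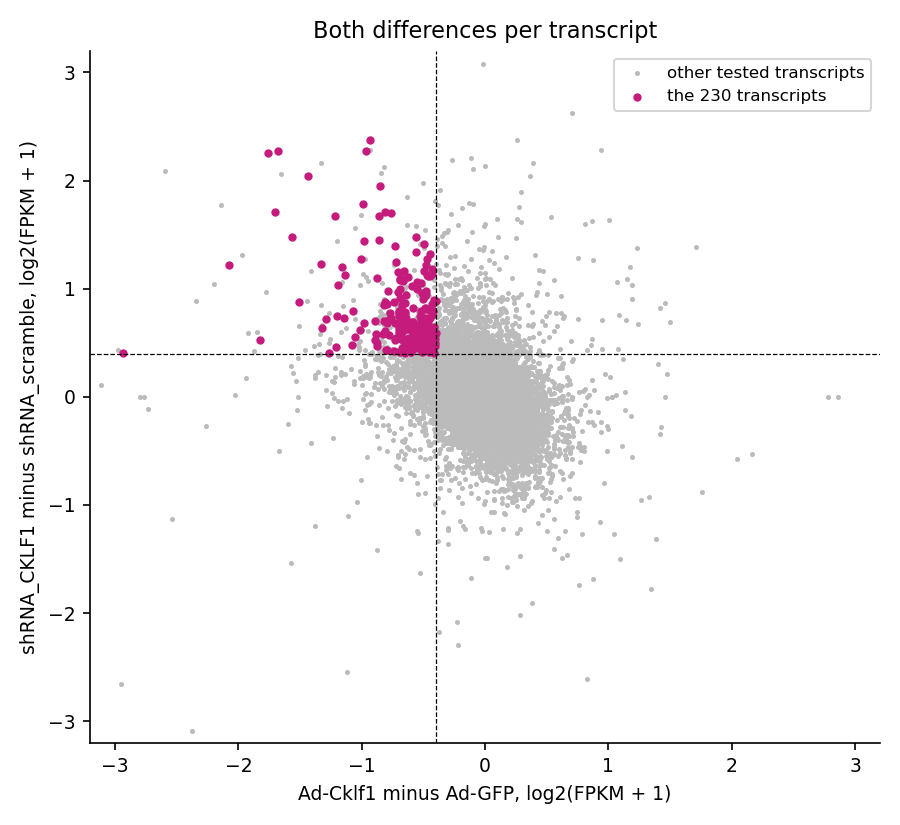
Difference between Ad-Cklf1 and Ad-GFP (horizontal axis) and between shRNA_CKLF1 and shRNA_scramble (vertical axis), both as differences of group means of log2(FPKM + 1), for each tested transcript. The 230 transcripts (coloured) fill the upper left corner set by the dashed limits at -0.4 and 0.4, grey points in that corner failed another condition, and 8 other transcripts beyond 3.2 on either axis are not drawn.

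The limits of the rule fell inside a continuous range of values. The smallest falls included were -0.4008 and -0.4012, and the largest left out for the fall alone were -0.3997 and -0.3985. The smallest rises included were 0.4026 and 0.4076, beside 0.3996 and 0.3978 just outside. The lowest means included were 2.10 and 2.15 FPKM, beside 1.995 and 1.992 outside. The hairpin libraries differed from the others by -1.478 and -1.477 in the transcripts just inside the lower limit and by -1.520 and -1.523 just outside it. At the upper limit these differences were 1.461 and 1.442 inside and 1.781 and 2.116 outside. The size of the fall was the single failed condition for 213 transcripts, the size of the rise for 135, overlap of the knockdown libraries for 69, the level for 42, the difference of the hairpin libraries for 34 and overlap of the overexpression libraries for 13.

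Within the same limits on level and on the difference of the hairpin libraries there were 11781 transcripts, of which the 230 made up 1.95%. The reverse pattern, higher with Ad-Cklf1 and lower with knockdown at the same sizes and with the same separation, held for 82 transcripts (0.696%). Transcripts that were lower in both comparisons numbered 9 and those higher in both 16. The 2 comparisons share no library, and the difference between these counts was not tested.

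A fall of at least 1 log2 unit together with a rise of at least 1 was seen in 12 of the 230. Their group means ran from 3.10 to 239.6 FPKM in Ad-GFP, 0.788 to 94.6 in Ad-Cklf1, 0.383 to 35.8 in shRNA_scramble and 2.52 to 112.1 in shRNA_CKLF1. ENSRNOT00000013073 was one of them, and so was the transcript with the low shRNA_scramble library. The latter had differences of -1.44 and 2.04 and was called in neither comparison. A rise of that size rests on the low library, at 0.0134 FPKM. The other shRNA_scramble libraries stood at 16.1 and 15.9 FPKM, and the shRNA_CKLF1 libraries at 25.7, 22.7 and 31.3 FPKM.

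The size of the rise followed that of the fall loosely. Across the 230 transcripts the 2 sizes had a Pearson r of 0.36 and a Spearman rho of 0.26, within a range cut off by the rule. Over all 13698 tested transcripts the values were 0.34 and 0.40. The rise was the larger of the 2 in 143 transcripts, the sizes lay within 0.2 log2 units of each other in 133, and the median of rise minus fall was 0.06, with a range of -2.54 to 1.44. The fall was the larger by at least 0.5 in 10 transcripts and the rise in 28.

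The order of the 4 group means took 6 forms. Ad-GFP was the highest group in 186 transcripts and shRNA_CKLF1 in the other 44, while shRNA_scramble was the lowest in 195 and Ad-Cklf1 in the other 35. The rule leaves no other group at either end. In 110 transcripts the order from low to high was shRNA_scramble, shRNA_CKLF1, Ad-Cklf1 and Ad-GFP, with median group means of 4.39, 7.997, 9.75 and 14.6 FPKM. In these the group mean was higher with knockdown but low in both hairpin groups, and did not reach that of Ad-Cklf1. The knockdown libraries all lay below those of Ad-Cklf1 in 41 of the 110. In 71 transcripts shRNA_CKLF1 lay between Ad-Cklf1 and Ad-GFP, with medians of 5.57 FPKM in shRNA_scramble, 7.74 in Ad-Cklf1, 9.97 in shRNA_CKLF1 and 12.7 in Ad-GFP.

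The remaining 49 transcripts split into 4 smaller orders. In 44 of them the knockdown stood highest. Of these, 17 ran from Ad-Cklf1 through shRNA_scramble and Ad-GFP to shRNA_CKLF1 (medians 4.11, 4.85, 8.74 and 18.1 FPKM), and 14 had shRNA_scramble lowest and a median of 22.9 FPKM in shRNA_CKLF1 against 13.9 in Ad-GFP. In 13, both hairpin groups lay above both others, with 4.92 FPKM in Ad-Cklf1, 7.83 in Ad-GFP, 8.36 in shRNA_scramble and 20.1 in shRNA_CKLF1. The last 5 had Ad-Cklf1 lowest and Ad-GFP highest.

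Many of these orders rested on groups that did not overlap. The 3 shRNA_CKLF1 libraries all lay below the 3 of Ad-GFP in 162 transcripts (70.4%), beside a background of 28.8% of all tested transcripts. They all lay above Ad-GFP in 32 (13.9%, background 26.3%) and overlapped it in 36. The 3 shRNA_scramble libraries all lay below Ad-Cklf1 in 164 transcripts (71.3%, background 31.7%), all above it in 26 (11.3%, background 29.7%) and overlapped it in 40. Levels in shRNA_CKLF1 and Ad-Cklf1, the neighbours in the order of medians, overlapped in 104 transcripts (45.2%, against 47.7% of all tested transcripts). In 85 the knockdown libraries all lay above those of Ad-Cklf1 (37.0%, against 25.8%), and in 41 all below (17.8%, against 26.5%). These counts reuse libraries that the rule selected on, and carry no test.

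Most of the transcripts were lower in the hairpin libraries with TNF than in the libraries without. The mean of the 2 hairpin groups was compared with the mean of the other 2, on the same 12 libraries that the rule used. The rule limited the size of this difference to 1.5 and did not ask for a direction. Its noise is uncorrelated with that of the fall and the rise only where the groups compared spread equally. In these transcripts shRNA_CKLF1 spread more than shRNA_scramble (median SD of 0.177 against 0.108 log2 units), so noise in the knockdown mean enters both the rise and this difference. The counts below are therefore given beside those of all tested transcripts and not as independent support. In the limma fit 175 of the 230 transcripts were lower in the hairpin libraries at an adjusted p below 0.05 (76.1%), where 31.7% of all tested transcripts were lower. A further 33 were higher (14.3%), where 29.3% of all tested transcripts were. The median difference was -0.60 log2 units over the 230, with quartiles of -0.92 and -0.23, against -0.01 over all tested transcripts and 0.17 over the 82 with the reverse pattern. The median standard error of the 230 was 0.080.

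In sign, the difference was below 0 in 184 transcripts and above 0 in 46. It was -1 or lower in 49 (21.3%, against 2.83% of all tested transcripts) and 1 or higher in 8 (3.48%, against 3.37%). The median was -0.74 among the 175 called lower and 0.69 among the 33 called higher. The 22 that were not called had differences of -0.80 to 0.53 and limma adjusted p values of 0.058 to 0.838. The treatment with TNF, the hairpin in place of a protein-coding insert and any handling of these 6 libraries together cannot be told apart in this difference. Dividing by the upper quartile of transcripts above 0 moved the share of higher calls over all tested transcripts from 48.0% to 37.2%. Among the called transcripts of the 230 that share went from 15.9% to 13.7%, and the median difference of the 230 from -0.60 to -0.67.

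**Figure D3:**
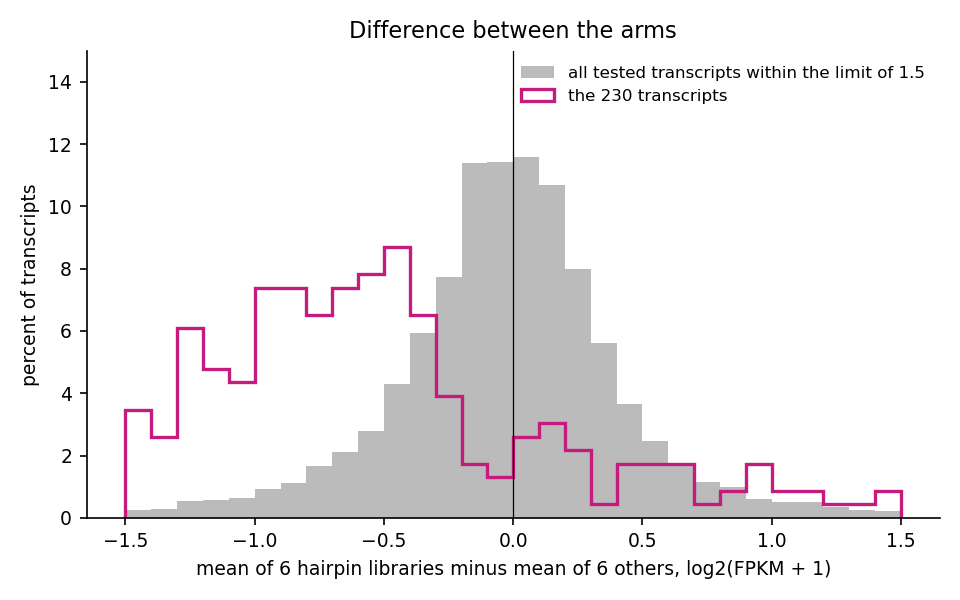
Distribution of the difference between the mean of the 6 hairpin libraries and the mean of the 6 others, in log2(FPKM + 1), as the percent of transcripts per bin of 0.1. The outline holds the 230 transcripts, with a median of -0.60, and the grey bars hold all tested transcripts within the limit of 1.5, centred near 0.

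The 2 lowest and 2 highest transcripts in this difference were named for its size, so their values are descriptions. ENSRNOT00000018923 had the most negative difference. It stood at 10.1, 9.15 and 9.71 FPKM in Ad-GFP and 6.38, 4.67 and 5.40 FPKM in Ad-Cklf1. The hairpin groups were lower, at 0.900, 1.08 and 0.823 FPKM in shRNA_scramble and 2.55, 3.48 and 5.04 FPKM in shRNA_CKLF1. Replicate 3 of the knockdown overlapped the range of Ad-Cklf1, and all other hairpin libraries lay below it. The difference was -1.48 log2 units (SE 0.12, limma adjusted p = 2.15e-06).

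ENSRNOT00000086310 was close behind at a higher level, with 137, 173 and 132 FPKM in Ad-GFP and 66.3, 77.3 and 63.5 FPKM in Ad-Cklf1. It fell to 28.7, 27.7 and 33.7 FPKM in shRNA_scramble and 49.8, 41.1 and 36.1 FPKM in shRNA_CKLF1. No hairpin library reached any library without TNF, and the difference was -1.48 (SE 0.10, limma adjusted p = 6.22e-07). Both transcripts with the largest fall in overexpression, chosen in part for their high Ad-GFP values, also had a negative difference. It was -1.14 for ENSRNOT00000047634 (SE 0.05, limma adjusted p = 2.46e-08), where both hairpin group means, 24.2 and 32.2 FPKM, lay above the 22.0 FPKM of Ad-Cklf1 and only Ad-GFP was higher. It was -1.21 for ENSRNOT00000013073 (SE 0.25, limma adjusted p = 0.00181), where Ad-Cklf1, at a mean of 12.3 FPKM, lay between shRNA_scramble at 6.95 and shRNA_CKLF1 at 19.2.

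At the other end, ENSRNOT00000006765 stood at 2.40, 2.26 and 2.30 FPKM in Ad-GFP and 1.18, 0.948 and 1.09 FPKM in Ad-Cklf1. It was higher in the hairpin groups, at 4.20, 2.77 and 5.12 FPKM in shRNA_scramble and 8.54, 9.02 and 11.3 FPKM in shRNA_CKLF1. All 6 hairpin libraries lay above all 6 others. The difference was 1.46 (SE 0.11, limma adjusted p = 1.47e-06).

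ENSRNOT00000044983 showed the same order of groups, at 12.8, 10.1 and 10.8 FPKM in Ad-GFP and 9.20, 7.84 and 6.55 FPKM in Ad-Cklf1. It reached 18.0, 18.6 and 17.4 FPKM in shRNA_scramble and 48.2, 48.3 and 28.7 FPKM in shRNA_CKLF1, with a difference of 1.44 (SE 0.13, limma adjusted p = 6.38e-06). Replicate 3 was the low library of the knockdown here. Its fall with overexpression, -0.47 (SE 0.19), was not called (limma adjusted p = 0.110). The 2 transcripts with the largest rise in knockdown lay on opposite sides, at 0.92 for ENSRNOT00000010092 (SE 0.21, limma adjusted p = 0.00313) and -1.28 for ENSRNOT00000001570 (SE 0.16, limma adjusted p = 5.85e-05).

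**Figure D4:**
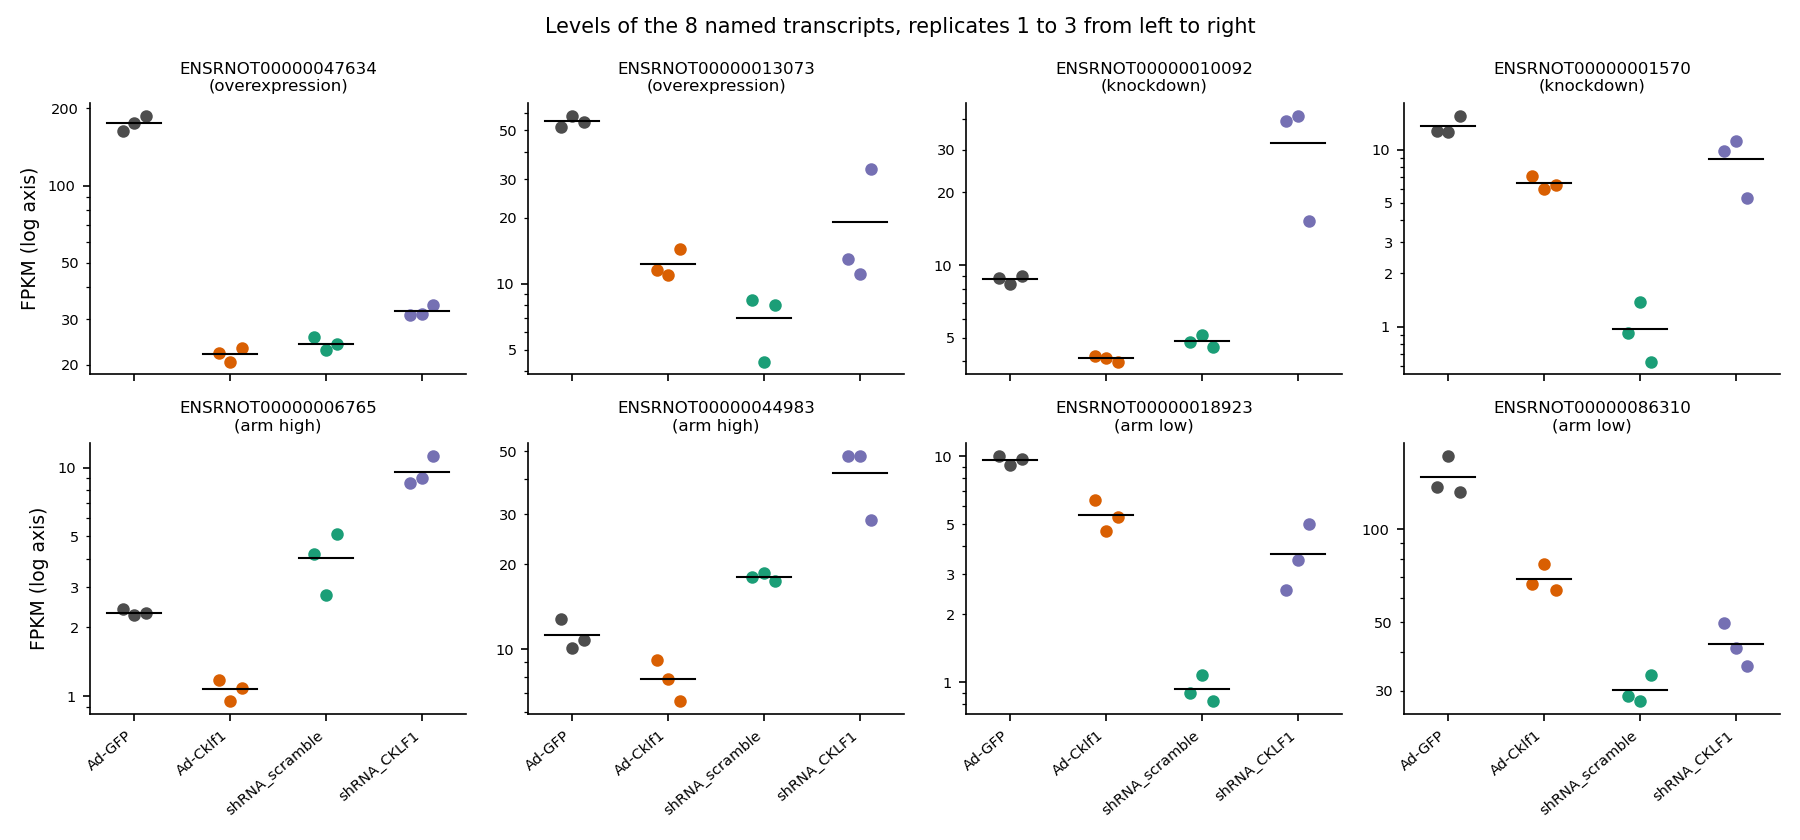
FPKM on a log axis in each of the 12 libraries for the 8 named transcripts, with replicates 1 to 3 from left to right as points and the group mean as a line. Panel titles give why each was named (largest fall with overexpression, largest rise with knockdown, highest or lowest difference of the hairpin libraries from the others); ENSRNOT00000047634 and ENSRNOT00000013073 stand far higher in Ad-GFP than in any other group mean, and knockdown replicate 3 leaves its group upward in ENSRNOT00000013073 and downward in ENSRNOT00000010092.

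Within groups, the mean deviation of the 230 transcripts was largest in 1 library, replicate 3 of shRNA_CKLF1. It lay above both other knockdown libraries in 151 transcripts (65.7%, against 36.3% of all tested transcripts), below both in 61 (26.5%, against 38.2%) and between them in 18. A shared direction was not particular to this library. Replicate 3 exceeded its group mean in 70.0% of the 230 in Ad-GFP, 67.8% in Ad-Cklf1, 61.3% in shRNA_scramble and 70.9% in shRNA_CKLF1. Over all tested transcripts the shares were 52.7%, 49.9%, 50.5% and 49.8%. The mean deviations were 0.037, 0.030, 0.020 and 0.114 log2 units. Replicate 1 of Ad-GFP exceeded its group mean in only 29.1% of the 230. The median standard deviation within shRNA_CKLF1 was 0.177 log2 units over the 230 and 0.109 over all tested transcripts. In the other groups the values were nearer, at 0.0859 and 0.0883 in Ad-GFP, 0.0867 and 0.0780 in Ad-Cklf1, and 0.108 and 0.0913 in shRNA_scramble. The first component of the deviations from group means held 49.5% of their variance over the 230 and 18.7% over all tested transcripts, and replicate 3 had the largest weight in both. Without ENSRNOT00000075167 the share was 57.8%.

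The set with the reverse pattern deviated in the same library and the other way. Over its 82 transcripts the mean deviation of replicate 3 was -0.18, against 0.11 and 0.07 for replicates 1 and 2. Over the 230 it was 0.11, against -0.07 and -0.05. In both sets replicate 3 thus lay, on average, further from shRNA_scramble than replicates 1 and 2 did. Both sets were chosen by a rule that uses the mean of the 3 knockdown libraries.

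The deviation of replicate 3 varied with the difference of the hairpin libraries from the others. Across the 230 transcripts Pearson r was -0.50 and Spearman rho -0.47, against -0.15 and -0.15 over all tested transcripts. Replicate 3 is itself 1 of the 6 hairpin libraries in that difference. Among the 151 with replicate 3 on top, 132 lay lower in the hairpin libraries and 40 by at least 1 log2 unit. Among the 61 with replicate 3 at the bottom, 40 lay lower and 6 by at least 1. The median difference was -0.73 in the 151 and -0.42 in the 61.

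The size of the rise differed between this library and the other 2. In the 49 transcripts with a hairpin difference of -1 or lower, the median rise was 0.57 from replicates 1 and 2 and 1.21 from replicate 3. In the 8 transcripts at 1 or higher it was 1.30 and 0.76, so there replicate 3 was the lesser one. Replicates 1 and 2 alone lay at least 0.4 above shRNA_scramble in 187 of the 230 (81.3%, against 9.43% of all tested transcripts), and replicate 3 alone in 214 (93.0%, against 12.6%). The rule, which needs all 3 libraries above shRNA_scramble and a mean rise of at least 0.4, sets most of both shares. Replicate 3 was at least 2-fold above the mean of replicates 1 and 2 in 20 transcripts (8.70%, against 2.52%) and at most 0.5 of it in 7 (3.04%, against 2.55%). The cause of its deviation was not tested.

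**Figure D5:**
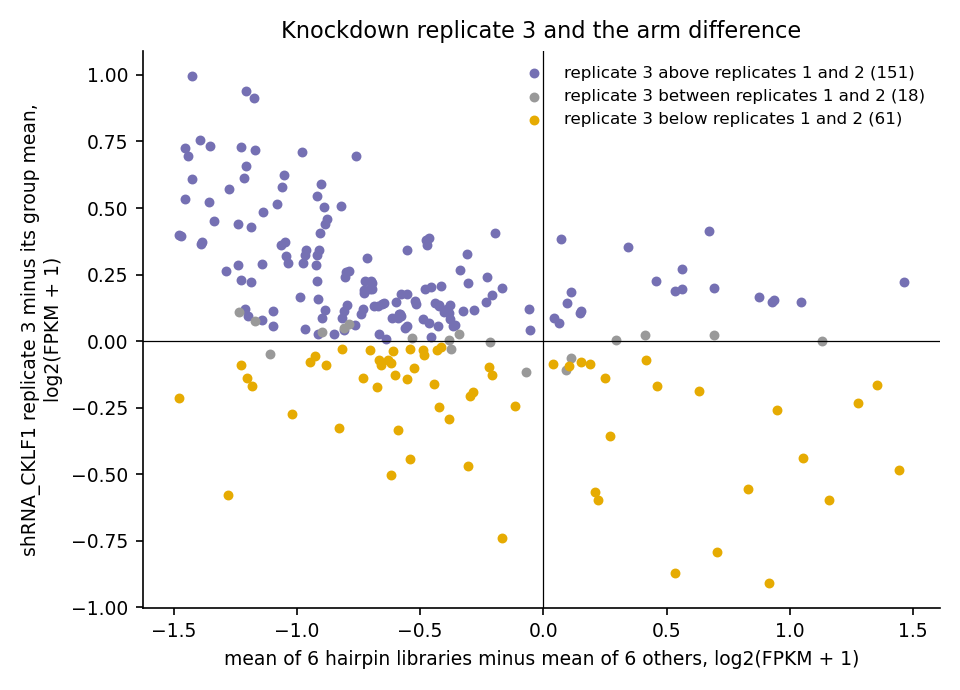
Deviation of shRNA_CKLF1 replicate 3 from its group mean (vertical axis) against the difference of the hairpin libraries from the others (horizontal axis), both in log2(FPKM + 1), for the 230 transcripts. Colours mark whether replicate 3 lay above (151), below (61) or between (18) replicates 1 and 2, and the largest upward deviations lie at the left, among transcripts that were lower in the hairpin libraries.

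With replicate 3 of the knockdown left out, 175 of the 230 were called lower in the hairpin libraries by limma and 35 higher, where 31.8% of all tested transcripts were lower and 29.4% higher.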

How the data were processed

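Poly(A)-selected RNA from 12 libraries in 4 groups, taken from the sample titles, was sequenced on an Illumina instrument, per the labels' protocols. The deposited files give 1 FPKM value per Ensembl transcript and library, the unit being read from the column name in the file header and from the values. The genome build was Rnor 6.0, per the submitters' processing notes. The aligner, quantifier and annotation were not given in the sources used here. Read depth is not recorded, so no counting intervals are given; relative depth was estimated roughly from steps among low values.

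The members and gene lists were chosen with earlier results of these data known. The 14 gene lists (171 symbols) could not be used, as 0 identifiers matched a table of 47357 genes.

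Values were transformed to log2(FPKM + 1), which understates changes of low transcripts. Transcripts averaging 1 FPKM or more (13698) were fitted with limma 3.58.1 in R 4.3.3, with 4 group means and 8 residual degrees of freedom, and p-values were Benjamini-Hochberg adjusted over all of them for each of 3 comparisons. Calls needed an adjusted p below 0.05. The fit was tested on simulated data. Named by rule were the 2 transcripts with the largest fall, the 2 with the largest rise, and the 2 highest and 2 lowest in the difference of the hairpin libraries.

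Alternatives covered the pseudocount, scaling, filters, the conditions of the rule, single libraries left out, a replicate block, a trended robust prior and fits of 6 libraries.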

Additional observations from a re-analysis of the deposited data

How the results depend on the processing

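The number of transcripts meeting the rule followed its limits, with 396 at differences of at least 0.3, 132 at 0.5 and 112 at a mean of at least 10 FPKM. Of those 112, 104 were called lower in overexpression and 110 higher in knockdown, both comparisons that the rule selected on. Of all transcripts tested at that level, 16.4% and 23.0% were. In the hairpin libraries 19 of the 112 were called higher and 84 lower, beside 32.4% and 39.8% of all transcripts tested at that level. The counts were smaller because fewer transcripts entered. Leaving out 1 library at a time gave 198 (without shRNA_CKLF1 replicate 3) to 275 transcripts meeting the rule. Of the 230, 152 (without Ad-GFP replicate 3, where 6.37% of all tested transcripts were called lower) to 218 (without shRNA_CKLF1 replicate 3, 13.2%) were then called lower in overexpression. In knockdown 190 to 212 were called higher, beside 12.4% to 16.3% of all tested transcripts. In the hairpin difference 29 to 35 were called higher and 170 to 175 lower, beside 27.8% to 29.4% and 29.8% to 31.8%. Fits of only the 6 libraries compared called 219 of the 230 lower in overexpression, beside 11.9% of all tested transcripts. They called 171 of the 229 tested there higher in knockdown, fewer than any other alternative at that level filter, beside 9.95%. Scaling by the quartile over all transcripts, zeros included, was chosen after seeing the data. None of the 8 named transcripts lost its call or changed direction, in the comparisons for which it was named, under any alternative that tested it. They were named for extreme values in those comparisons, so this is largely set by the naming. ENSRNOT00000001570, ENSRNOT00000006765 and ENSRNOT00000018923 averaged under 10 FPKM and did not enter the fit at that level.

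Same-numbered libraries of different groups had deviations that correlated at -0.048 to 0.086 over all tested transcripts, none over 0.1, and the labels tie no number to an animal, batch or day. The numbers were therefore not taken to pair the samples. With the replicate number as a block, 196 of the 230 were called lower in overexpression and 219 higher in knockdown. Of all tested transcripts 10.8% and 16.1% were, and the rule had selected the 230 on both comparisons. In the hairpin libraries 32 were called higher and 176 lower, beside 29.2% and 31.6% of all tested transcripts. Over the 230 alone these correlations ran from -0.087 to 0.53, and 10 of 18 exceeded 0.1. For Ad-Cklf1 all 3 did so with shRNA_scramble (0.26, 0.16 and 0.53) and with shRNA_CKLF1 (0.21, 0.15 and 0.30). These values include ENSRNOT00000075167, whose replicate 3 was far the lowest in both Ad-Cklf1 and shRNA_scramble. It stood at 22.3, 16.5 and 6.18 FPKM in Ad-Cklf1 and 16.1, 15.9 and 0.0134 FPKM in shRNA_scramble. A single such transcript can carry much of a correlation, and its part here was not tested. Depth is unknown, so the counting error of low values is not given.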
